A study of Mus musculus with 6 samples.

Results

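The genes described here are 10 channels and calcium entry proteins that have been proposed to sense fluid shear in bone cells: Piezo1, Piezo2, Pkd1, Pkd2, Trpv4, Trpm7, Cacna1c, Cacna2d1, Stim1 and Orai1. They were taken by gene symbol, and all 10 were found among the 39174 genes of the deposited expression table. RNA was sequenced from MLO-Y4 cells, a mouse line that serves as a model of osteocytes, which lie buried in mineralised bone. In the flow group (n = 3), oscillating flow at a shear stress of 10 dyn per square cm was applied for 2 h, and RNA was taken after 2 h more in fresh medium. The non-flow controls (n = 3) were sham-treated cells collected in parallel. Both groups were grown on glass slides coated with type I collagen and seeded 48 h before flow, and the labels place the replicates of each group on separate days. The comparison asks which transcripts of these genes differed after flow.

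Mechanically activated channels open when the membrane is stretched or sheared and let calcium and other cations into the cell, and a rise in calcium is among the earliest recorded responses of osteocytes to fluid flow. PIEZO channels are gated by membrane tension itself, whereas TRP channels, polycystins and voltage-gated calcium channels have been linked to flow sensing through matrix, cilium or tethering proteins. When calcium stored in the endoplasmic reticulum runs low, STIM proteins in its membrane open ORAI pores in the plasma membrane. A transcript level measures neither channel protein nor current, and in bulk RNA fewer cells of a kind and less RNA per cell cannot be told apart.

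MLO-Y4 is 1 immortalised line, made from long bone of a mouse whose transgene carried SV40 large T antigen under an osteocalcin promoter, so the replicates are cultures and not animals. Osteocyte genes were unevenly present. Pdpn, which marks early osteocytes, averaged 400.7 FPKM over the 6 libraries, Gja1, the gap junction protein connexin 43, 455.3 FPKM and Phex 5.59 FPKM. Dmp1 averaged 0.00928 FPKM, and Sost, Mepe and Fgf23, genes of mature osteocytes, were listed at 0 in all 6 libraries. Osteoblast genes were uneven too: Spp1 averaged 7254 FPKM and Col1a1 142.9 FPKM, Bglap 8.21 and Alpl 3.11 FPKM, and Sp7 and Ibsp, at 0.245 and 0.00809 FPKM, did not reach the level for testing. The endothelial genes Kdr and Tie1 and the neuron gene Snap25 were listed at 0 in all 6 libraries, while Tubb3, of the neuron list, averaged 5.05 FPKM. The blood cell gene Ptprc averaged 0.00236 FPKM. Of the tested marker genes, 2 of 7 osteoblast genes (Col1a2 and Bglap2) and the muscle gene Acta1 had unadjusted p under 0.05, all lower in flow. None of the 3 osteocyte, 2 macrophage and osteoclast and 1 neuron genes tested had, and none of the 5 endothelial genes reached the level for testing. Of the 7 osteoblast genes 6 had negative fold changes, with a median of -0.26, the exception being Spp1 (7 of 7 and -0.098 after GC correction). The osteoblast list, nearly all of it Spp1, summed to 6725 to 8570 FPKM in flow and 7189 to 7329 FPKM in non-flow control. The endothelial list summed to 0.109 to 0.152 FPKM in flow and 0 to 0.0922 FPKM in non-flow control, and the muscle list to 6.36 to 9.65 FPKM in flow and 9.38 to 14.2 FPKM in non-flow control. The macrophage and osteoclast list, nearly all of it Ctsk (198.1 FPKM on average), summed to 167.2 to 208.6 FPKM in flow and 196.0 to 219.1 FPKM in non-flow control. The neuron list summed to 3.53 to 5.98 FPKM in flow and 4.25 to 5.64 FPKM in non-flow control. The part of these lists in the results was not tested.

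Expression is given in FPKM, fragments scaled to transcript length and library depth, which is a level per length and so allows genes to be set beside each other. Library depth, inferred from how finely low values were graded, was 5760000 to 19230000 reads, lowest in flow libraries 2 and 1 (5760000 and 11020000). At these depths 3 reads over 1 kb equal 0.156 to 0.521 FPKM. Each fold change is a difference of group means (flow less non-flow control) of log2(FPKM + 1), and the added 1 makes changes of low genes look smaller. Fold changes were tested with limma over the 11957 genes that averaged 1 FPKM or more, and p-values were adjusted over all of these. Of the 10 genes, 8 reached that level and Piezo2 and Cacna1c did not.

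The genes' promoters are shown for the 2 most abundant transcripts, Piezo1 and Trpm7, and for Cacna1c, the least abundant, as the 250 bases before the RefSeq start on assembly GRCm38.p6, 5′ to 3′ on the gene's strand. Windows were taken for 9 of the 10 genes, and Piezo2 was left out of all promoter counts. Capitals mark CG dinucleotides. The windows lie on the minus strand at chr8:122551330-122551579 for Piezo1, chr2:126876262-126876511 for Trpm7 and chr6:118757975-118758224 for Cacna1c. The Cacna1c window is that of its start inside the deposited locus.
Piezo1: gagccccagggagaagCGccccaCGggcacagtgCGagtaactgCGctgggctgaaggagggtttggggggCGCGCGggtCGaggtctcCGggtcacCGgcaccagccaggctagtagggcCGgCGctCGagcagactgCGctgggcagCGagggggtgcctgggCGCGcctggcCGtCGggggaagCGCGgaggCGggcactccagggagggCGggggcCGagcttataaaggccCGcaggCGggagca
Trpm7: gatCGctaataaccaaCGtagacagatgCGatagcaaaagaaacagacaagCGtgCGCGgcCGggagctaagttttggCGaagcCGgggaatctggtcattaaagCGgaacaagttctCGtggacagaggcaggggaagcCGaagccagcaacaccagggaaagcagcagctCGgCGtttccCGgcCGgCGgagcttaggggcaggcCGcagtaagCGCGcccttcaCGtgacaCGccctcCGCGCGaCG
Cacna1c: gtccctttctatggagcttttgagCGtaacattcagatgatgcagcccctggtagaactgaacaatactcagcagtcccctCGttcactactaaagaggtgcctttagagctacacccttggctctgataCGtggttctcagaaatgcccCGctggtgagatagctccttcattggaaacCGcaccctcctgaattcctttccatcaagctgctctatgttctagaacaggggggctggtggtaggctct

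The Piezo1 and Trpm7 windows each held 26 CG dinucleotides, more than 90.4% of 32851 mouse promoter windows of the same length, whose median was 6. The Cacna1c window held 5. RefSeq gives Cacna1c 2 further starts upstream of the deposited locus, whose windows held 2 and 48. CG content did not order the levels of the genes, since the Pkd2 window held 4 and that of Cacna2d1 36. With both strands searched, TATAAA was found in 1 of 9 genes, Piezo1, and in 12.4% of all windows. The GC box GGGCGG was found in 7 of the 11 windows of these genes and in 32.7% of all windows. For Cacna1c it was in the window with 48 CG dinucleotides and not in the printed one. No window of these genes held the cAMP response element TGACGTCA, found in 1.55% of all windows. These matches describe the letters in the windows only.

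None of the 8 tested genes passed the test between flow and non-flow cells. They gave 0 calls at an adjusted p of 0.05 (limma), where 0.0167% of all genes tested were called, 0.00836% higher and 0.00836% lower in flow. They gave 0 at an unadjusted p of 0.05, where 8.52% of all genes passed, 3.70% higher and 4.82% lower in flow. In 0 of the 8 were the groups free of overlap, against 15.1% of all genes, 7.12% of all with flow above. The largest positive fold change among them was that of Trpm7 (0.34) and the largest negative one that of Pkd1 (-0.29). Of the 8, 4 had positive and 4 negative fold changes, with a median of 0.012 on the log2 scale beside -0.011 over all genes tested. The overlap of the groups is that of the table used here. In a second deposited table, which does not list Piezo1, all flow values lay above the controls for Cacna2d1 and below them for Orai1. The share of all genes without overlap was not counted there.

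Levels spanned more than the fold changes did. Piezo1 averaged 110.3 FPKM over the 6 libraries, 4.72 times Trpm7 at 23.4 FPKM. Pkd2 followed at 17.5 FPKM, then Trpv4 at 7.83, Stim1 at 7.10, Orai1 at 7.08, Pkd1 at 4.83 and Cacna2d1 at 2.06 FPKM. Piezo2 averaged 0.576 FPKM and Cacna1c 0.0221 FPKM. Trpv4, Stim1 and Orai1 could not be ordered: Trpv4 was above Stim1 in 4 of 6 libraries and Stim1 above Orai1 in 2 of 6. For every other neighbouring pair the higher gene was higher in 6 of 6 libraries, although over libraries the ranges of Trpm7 and Pkd2 overlapped, as did those of Orai1 and Pkd1.

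**Figure D1:**
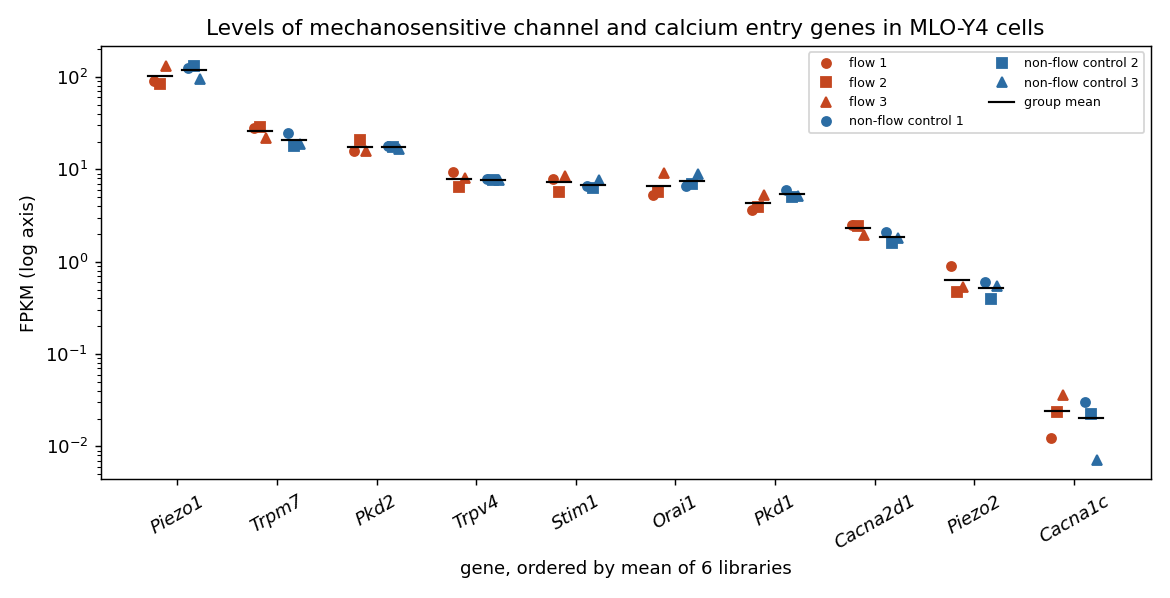
FPKM on a log axis of each of the 10 genes in the 3 flow libraries (left, orange) and the 3 non-flow control libraries (right, blue), with the group means as bars, ordered by the mean of 6 libraries. Piezo1 stands at 110.3 FPKM on average and Cacna1c at 0.0221 FPKM, and within every gene the flow and non-flow control points overlap.

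Piezo1 encodes a trimeric, stretch-gated cation channel. Its level was above that of 95.4% of protein-coding genes. It measured 91.1, 84.1 and 132.0 FPKM in flow libraries 1 to 3, against 126.5, 132.8 and 95.4 FPKM in non-flow control libraries 1 to 3. Flow libraries 1 and 2 were the lowest of the 6, while flow library 3 lay beside the 2 highest controls, so the groups overlapped. Piezo1 averaged 102.4 ± 25.9 FPKM in flow and 118.2 ± 20.02 FPKM in non-flow control (SD, n = 3 each). Its log2 fold change was -0.22 (SE 0.21, 95% interval -0.73 to 0.29, limma adjusted p = 0.671). After each library's trend with GC content was removed, the fold change was 0.000131 (SE 0.15, adjusted p = 0.9999), and with flow libraries 1 and 2 left out it was 0.17. Here and below, leaving out flow libraries 1 and 2 sets flow library 3 alone against the 3 controls. That alternative was chosen after the data were seen.

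The Piezo1 value has limits. The gene lies at chr8:122481698-122551329 on the minus strand (mm10), but the deposited table gives it a locus of 4435 kb shared by 183 genes, 102 of them above 0. Loci of Pkd1 and Orai1 are also shared there, each by 3 genes over 82.7 kb and 159.8 kb. That of Trpm7 is shared by 2 genes over 84.7 kb, 1 of the 2 being above 0. The second deposited table has no row for Piezo1 or any other gene of its merged locus, so it could not serve as an alternative for Piezo1. In addition, 24.6% of its exon bases overlap exons of Ctu2, a tRNA thiolation gene on the opposite strand, and reads of the pair cannot be told apart where strand was not used. Ctu2 measured 26.0, 36.3 and 23.0 FPKM in flow, against 27.4, 30.03 and 25.8 FPKM in non-flow control. Its highest and its lowest value were both in flow, and its log2 fold change was 0.012 (SE 0.18, limma adjusted p = 0.981).

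Piezo2, the paralog best known from touch and proprioceptive neurons, measured 0.904, 0.467 and 0.536 FPKM in flow, against 0.601, 0.398 and 0.552 FPKM in non-flow control. The groups overlapped, with the highest value in flow library 1. With no filter on low values its log2 fold change was 0.10 (limma adjusted p = 0.779). The second deposited table gave the opposite direction. There Piezo2 measured 0.555, 0.636 and 0.388 FPKM in flow, against 1.72, 0.768 and 0.852 FPKM in non-flow control, without overlap. Piezo1 made up 99.4 ± 0.300% of the summed FPKM of both PIEZO genes in flow and 99.6 ± 0.140% in non-flow control (SD, n = 3 each). Piezo1 exceeded Piezo2 101, 180 and 246 times in flow libraries 1 to 3, against 210, 334 and 173 times in non-flow control libraries 1 to 3. The difference in mean log2 ratio, -0.48, gave p = 0.5 in a two-sided exact permutation test, in which 3 against 3 cannot give less than 0.1 (adjusted p = 0.667 over the 4 ratios computed).

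Genes with known effects on PIEZO channels were described beside them. Mdfic encodes an auxiliary subunit that binds the channel, and Sdc4 a heparan sulfate proteoglycan of the cell surface. Mdfic measured 44.6, 57.5 and 49.5 FPKM in flow, against 37.8, 42.8 and 47.0 FPKM in non-flow control, with a log2 fold change of 0.24 (limma adjusted p = 0.560). Sdc4 measured 136.3, 132.5 and 174.0 FPKM in flow, against 177.0, 151.8 and 207.9 FPKM in non-flow control, with a log2 fold change of -0.27 (limma adjusted p = 0.573). Both genes overlapped between the groups. The list of 8 genes holds Piezo1 and Piezo2 themselves, and the 4 tested were Piezo1, Mdfic, Sdc4 and Mdfi, whose log2 fold change was 0.0018. Of these, 0 were called and 0 had an unadjusted p under 0.05 (limma).

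The polycystins form a receptor and channel complex of the primary cilium. Pkd1 encodes polycystin 1, its large membrane-spanning receptor-like member, and lies at chr17:24549834-24596508 on the plus strand. It measured 3.66, 3.91 and 5.24 FPKM in flow, against 5.93, 5.08 and 5.17 FPKM in non-flow control. Flow libraries 1 and 2 were below all 3 controls, and flow library 3 lay among them. The means were 4.27 ± 0.851 FPKM in flow and 5.39 ± 0.465 FPKM in non-flow control (SD, n = 3 each), a log2 fold change of -0.29 (SE 0.16, 95% interval -0.67 to 0.096, limma adjusted p = 0.560). With the GC trend removed it was -0.10, and with flow libraries 1 and 2 left out -0.032. It was -0.26 in the second deposited table, and -0.42 to -0.20 with 1 library left out. On the opposite strand Tsc2 overlaps 3.98% of the Pkd1 exon bases.

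Pkd2 encodes polycystin 2, the cation channel of the complex, at chr5:104459450-104505819 on the plus strand. It measured 15.9, 20.9 and 15.8 FPKM in flow, against 17.9, 17.6 and 16.8 FPKM in non-flow control. The 3 controls lay between the flow values, and the means were 17.5 ± 2.89 FPKM in flow and 17.4 ± 0.603 FPKM in non-flow control (SD, n = 3 each). The log2 fold change was -0.0043 (SE 0.13, 95% interval -0.32 to 0.31, limma adjusted p = 0.991). Pkd2 exceeded Pkd1 in 6 of 6 libraries. The log2 ratio of Pkd1 to Pkd2 was -2.04 ± 0.42 in flow and -1.70 ± 0.099 in non-flow control (SD, n = 3 each). Their difference of -0.35 gave p = 0.4 (two-sided exact permutation test, adjusted p = 0.667).

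Pkd1 and Pkd2 were the main expressed members of their families. Pkd1 held 99.6% of the summed FPKM of its family of 5 in flow and 99.6% in non-flow control, and Pkd2 held 94.2% of that of its 3 in flow and 94.0% in non-flow control, the rest being Pkd2l2. Of the 17 polycystin genes and factors for their folding and glycosylation, 10 were tested, 0 were called and 0 had an unadjusted p under 0.05. Their median log2 fold change was -0.061. Dnajb11, an ER co-chaperone needed for polycystin 1 maturation, measured 192.3, 183.4 and 174.9 FPKM in flow, against 159.1, 170.3 and 163.3 FPKM in non-flow control. All 3 flow values were above the controls, with a log2 fold change of 0.16 that did not pass the test (SE 0.081, limma adjusted p = 0.559).

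Trpv4 encodes a calcium-permeable channel opened by swelling, warmth and lipid messengers, at chr5:114622152-114658421 on the minus strand. It measured 9.32, 6.41 and 8.14 FPKM in flow, against 7.77, 7.64 and 7.69 FPKM in non-flow control. The 3 controls lay within the flow range, and the means were 7.95 ± 1.46 FPKM in flow and 7.70 ± 0.0649 FPKM in non-flow control (SD, n = 3 each). The log2 fold change was 0.028 (SE 0.15, 95% interval -0.33 to 0.38, limma adjusted p = 0.949). Its close paralog Trpv2 was expressed at a like level, 9.73 ± 1.99 FPKM in flow and 9.65 ± 0.352 FPKM in non-flow control (SD, n = 3 each). Trpv4 gave 45.04% and Trpv2 54.9% of the summed TRPV level in flow, and 44.4% and 55.6% in non-flow control. Trpv1, Trpv5 and Trpv6 were listed at 0 in all 6 libraries.

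Trpm7 encodes a channel for magnesium and calcium fused to a kinase, at chr2:126791565-126876230 on the minus strand. It measured 28.1, 28.7 and 21.8 FPKM in flow, against 24.7, 18.0 and 19.004 FPKM in non-flow control. The 2 highest values were in flow libraries 1 and 2, but non-flow control 1 exceeded flow library 3. The means were 26.2 ± 3.81 FPKM in flow and 20.5 ± 3.60 FPKM in non-flow control (SD, n = 3 each). This gave the smallest p of the 8 genes, with a log2 fold change of 0.34 (SE 0.17, 95% interval -0.060 to 0.74, unadjusted p = 0.0830, limma adjusted p = 0.559). Without the GC trend of each library the fold change was 0.14. It was 0.098 without flow libraries 1 and 2, and 0.019 in the second deposited table. Trpm7 held 94.5% of the summed TRPM level in flow and 92.5% in non-flow control.

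Of 25 TRP genes 5 were tested, 0 were called, 0 had an unadjusted p under 0.05, and 8 were listed at 0 in all 6 libraries. The other tested members were Mcoln1, a lysosomal channel with a log2 fold change of -0.39, and Trpc2 at -0.34 (limma adjusted p = 0.566 and 0.627). Mcoln1 measured 17.9, 27.4 and 33.9 FPKM in flow, against 32.0, 35.5 and 34.3 FPKM in non-flow control, the groups overlapping through flow library 3. Of 11 magnesium transport genes, in which Trpm7 also stands, 9 were tested, 0 were called and 1 had an unadjusted p under 0.05. That gene, Cnnm3, measured 3.81, 3.09 and 3.83 FPKM in flow, against 5.60, 4.48 and 5.06 FPKM in non-flow control. All 3 flow values were below the controls, with a log2 fold change of -0.40 (SE 0.14, unadjusted p = 0.0308, limma adjusted p = 0.559).

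Cacna1c encodes the pore of the L-type voltage-gated calcium channel Cav1.2 and lies at chr6:118587240-119196418 on the minus strand. It was close to the limit of detection. It measured 0.0124, 0.0238 and 0.0356 FPKM in flow, against 0.0306, 0.0227 and 0.00719 FPKM in non-flow control. The values, scaled by depth, were whole multiples of 1 common step within 0.0064: 1, 1 and 5 steps in flow libraries 1 to 3, against 4, 3 and 1 in non-flow control libraries 1 to 3. If 1 step is 1 read, 7 reads in flow and 8 in non-flow control carry the gene. Over the longest transcript the 1 step of flow library 1 would instead equal 1.77 reads, so the floor below rests on another length. On its longest transcript, 3 reads equal 0.0210, 0.0402 and 0.0120 FPKM in flow and 0.0129, 0.0128 and 0.0122 FPKM in non-flow control. Flow libraries 1 and 2 and non-flow control 3 were under that floor, and a difference was not detectable at this depth. In the second deposited table Cacna1c measured 0.0379, 0 and 0.0593 FPKM in flow, against 0.199, 0 and 0.0290 FPKM in non-flow control.

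The other pore subunits were also low. Of the 10 voltage-gated alpha1 genes 0 reached the level for testing, the highest mean was 0.490 FPKM (Cacna1a), and 2 were listed at 0 in all 6 libraries, Cacna1f and the T-type gene Cacna1h. Among the auxiliary subunits, Cacna2d1 and the beta subunit genes Cacnb1, Cacnb2 and Cacnb3 were higher, while the highest of 8 gamma subunit genes averaged 0.433 FPKM, Cacnb4 0.161 FPKM and Cacna2d2 0.0215 FPKM, and Cacna2d3 and Cacna2d4 were listed at 0 in all 6 libraries. Cacna2d1 encodes alpha2-delta-1, an extracellular subunit that sets the surface number of these channels and binds gabapentin, and lies at chr5:15934691-16374511 on the plus strand. It measured 2.48, 2.45 and 1.95 FPKM in flow, against 2.10, 1.61 and 1.801 FPKM in non-flow control. Flow libraries 1 and 2 were the highest, and flow library 3 lay between the controls.

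Cacna2d1 averaged 2.30 ± 0.299 FPKM in flow and 1.83 ± 0.246 FPKM in non-flow control (SD, n = 3 each). Its log2 fold change was 0.22 (SE 0.17, 95% interval -0.20 to 0.64, limma adjusted p = 0.634), 0.027 with the GC trend removed and 0.45 in the second table (adjusted p = 0.751). Cacna2d1 made up 97.9% of the alpha2-delta level in flow and 100% in non-flow control. Its level exceeded that of Cacna1c 200, 103 and 54.8 times in flow and 68.5, 70.7 and 250.4 times in non-flow control, ratios whose denominator rests on the few steps above (log2 difference -0.034, two-sided exact permutation p = 1). Cacnb1, a cytoplasmic beta subunit, measured 2.62, 1.798 and 3.37 FPKM in flow, against 4.09, 4.61 and 3.11 FPKM in non-flow control. The groups overlapped, and its log2 fold change of -0.47 (SE 0.22, limma adjusted p = 0.559) was 0.25 in the second table. Of the 26 genes for channel subunits 4 were tested, 0 were called and 0 had an unadjusted p under 0.05.

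Stim1, the calcium sensor of the ER membrane, lies at chr7:102267806-102437319 on the plus strand. It measured 7.84, 5.72 and 8.53 FPKM in flow, against 6.57, 6.21 and 7.75 FPKM in non-flow control. Both the highest and the lowest value were in flow, and the means were 7.36 ± 1.46 FPKM in flow and 6.84 ± 0.804 FPKM in non-flow control (SD, n = 3 each). Its log2 fold change was 0.082 (SE 0.17, 95% interval -0.33 to 0.49, limma adjusted p = 0.851).

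Orai1, the pore of store-operated calcium entry, lies at chr5:123015074-123030456 on the plus strand. It measured 5.24, 5.69 and 9.12 FPKM in flow, against 6.66, 6.90 and 8.86 FPKM in non-flow control. Flow held the 2 lowest values and the highest one, and the means were 6.68 ± 2.12 FPKM in flow and 7.47 ± 1.204 FPKM in non-flow control (SD, n = 3 each). The log2 fold change was -0.17 (SE 0.22, 95% interval -0.70 to 0.37, limma adjusted p = 0.757). With the GC trend removed it was 0.046, and with flow libraries 1 and 2 left out 0.27. In the second deposited table it was -0.28 (SE 0.17, limma adjusted p = 0.751). There Orai1 measured 5.62, 4.77 and 6.10 FPKM in flow, against 6.82, 6.80 and 6.97 FPKM in non-flow control, without overlap. The log2 ratio of Stim1 to Orai1 was 0.16 ± 0.37 in flow and -0.12 ± 0.091 in non-flow control (SD, n = 3 each), a difference of 0.29 (two-sided exact permutation p = 0.2, adjusted p = 0.667).

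Neither Stim1 nor Orai1 was the most abundant gene of its family. Stim2, a sensor responsive to smaller drops in store calcium, averaged 17.9 ± 3.15 FPKM in flow and 16.3 ± 5.81 FPKM in non-flow control (SD, n = 3 each), so that Stim1 made up 29.2% of the STIM level in flow and 30.8% in non-flow control. Orai3 averaged 10.2 ± 1.19 FPKM in flow and 10.8 ± 0.519 FPKM in non-flow control, and gave 50.3% of the ORAI level in flow and 51.4% in non-flow control. Orai1 gave 32.1% in flow and 35.2% in non-flow control, and Orai2 17.6% in flow and 13.4% in non-flow control. Stim1 was below Stim2 and Orai1 below Orai3 in the mean of each group. Of 10 genes of store-operated entry 7 were tested, 0 were called and 0 had an unadjusted p under 0.05, with a median log2 fold change of -0.080. That median was 0.062 with the GC trend removed and 0.089 without flow libraries 1 and 2. Esyt1, an ER to plasma membrane tether, measured 41.8, 39.1 and 42.2 FPKM in flow, against 48.0, 48.6 and 44.0 FPKM in non-flow control, with no overlap and a log2 fold change of -0.19 (limma adjusted p = 0.559).

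**Figure D2:**
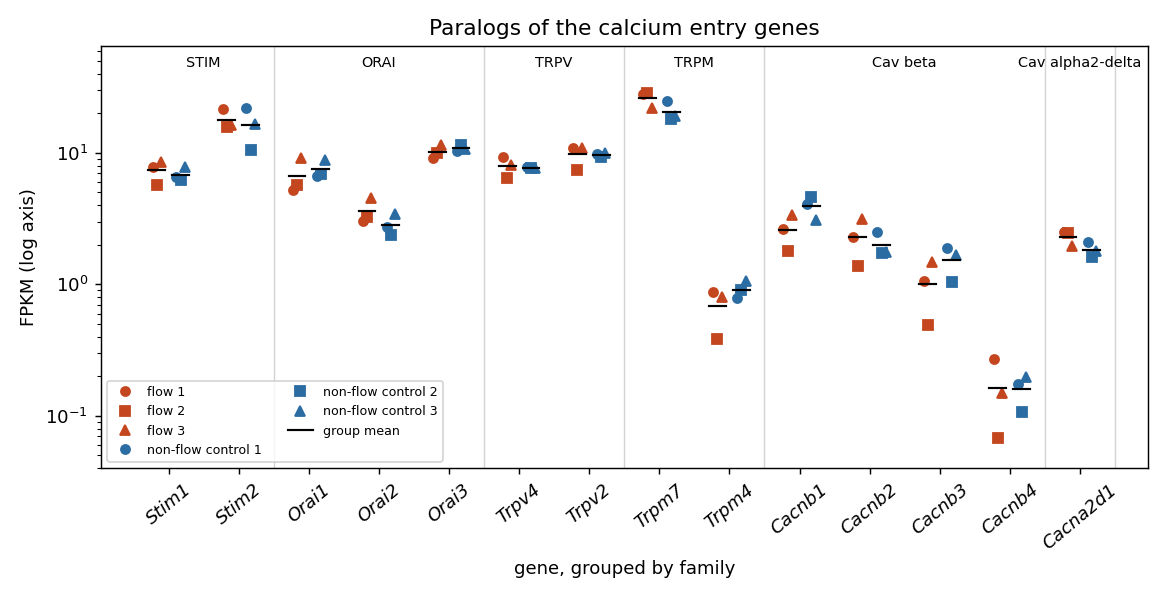
FPKM on a log axis of store-operated, TRP and voltage-gated channel genes beside their paralogs, flow libraries left in orange and non-flow control libraries right in blue, with group means as bars. Stim2 (17.9 FPKM in flow, 16.3 in non-flow control) stands above Stim1, Orai3 above Orai1 in the group means, and Trpm7 far above Trpm4.

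The shifts of several of these genes moved with a trend of whole libraries. Over 10460 protein-coding genes tested, the 2615 genes lowest in GC content (at most 44.7%) had a median log2 fold change of 0.18 and the 2615 highest (at least 54.4%) -0.20. The median deviation of the high-GC genes minus that of the low-GC genes was -0.34, -0.42 and 0.19 in flow libraries 1 to 3, against 0.18, 0.19 and 0.20 in the non-flow control libraries. Flow libraries 1 and 2 therefore stood apart from the other 4, and they were also the shallowest. Since both are flow libraries, the trend, their depth and an effect of flow cannot be told apart, and the cause was not tested. Trpm7 (40.1% GC) and Cacna2d1 (40.7%) were above their own means in both, by 0.28 and 0.31 for Trpm7 and 0.19 and 0.18 for Cacna2d1 on the log2 scale. Piezo1 (59.0%), Pkd1 (56.8%) and Orai1 (58.6%) were below theirs in both, at -0.25 and -0.36, -0.31 and -0.23, and -0.35 and -0.25. Trpv4, also of 59.0% GC, was at 0.23 and -0.25, and Stim1 (54.5%) at 0.14 and -0.26. Removing each library's GC trend brought the fold changes of Trpm7, Cacna2d1, Piezo1, Pkd1 and Orai1 nearer to 0 and moved those of Trpv4 and Stim1 to 0.25 and 0.22, and 0 of the 8 were called (limma). The median of the 8 was then 0.036.

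**Figure D3:**
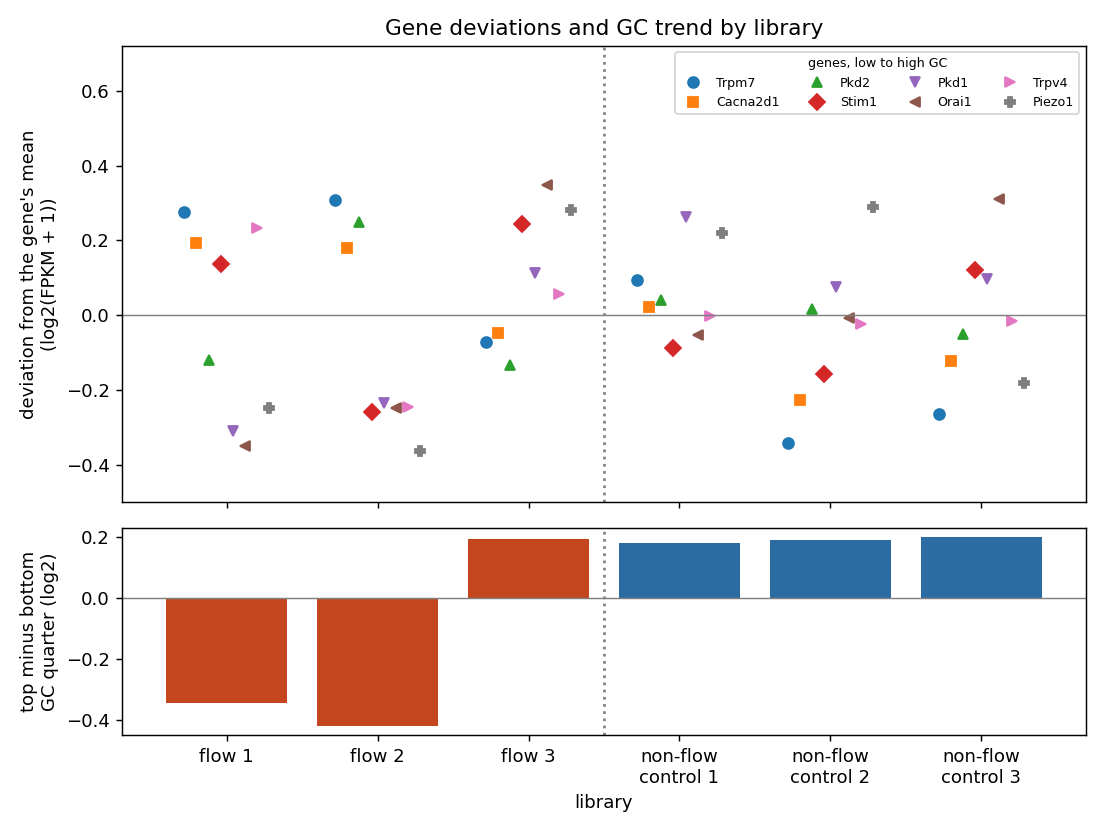
Upper panel: log2 deviation of each of the 8 tested genes from its own mean, by library, with genes in order of GC content. Lower panel: median deviation of the 2615 genes highest in GC minus that of the 2615 lowest in the same libraries, -0.34 and -0.42 in flow libraries 1 and 2 and 0.18 to 0.20 in the other 4, where low-GC Trpm7 is high and high-GC Piezo1 low in flow libraries 1 and 2.

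**Figure D4:**
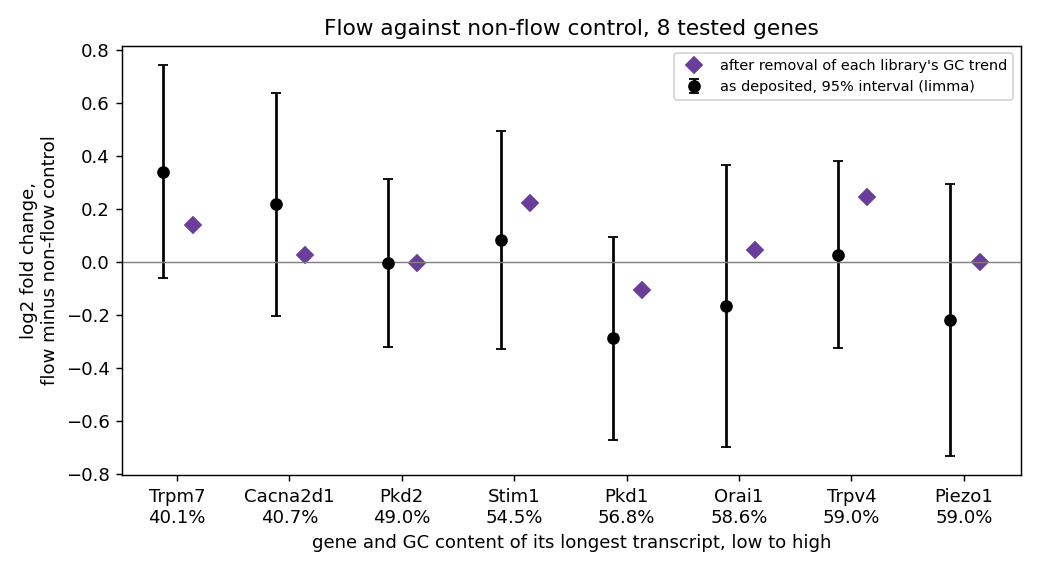
Log2 fold change of flow over non-flow control for the 8 tested genes in order of GC content, as deposited with the 95% interval (black) and after removal of each library's GC trend (purple). All 8 intervals include 0, and the corrected value of Piezo1 is 0.000131 where the deposited one is -0.22.

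Other mechanically gated and volume-regulated channels were described beside these genes. Of 27 found, 11 were tested, 0 were called and 1 had an unadjusted p under 0.05. All 11 had negative fold changes, with a median of -0.20, while 51.7% of all genes tested were negative. After removal of the GC trend 9 of the 11 were negative with a median of -0.11, and with flow libraries 1 and 2 left out 6 of 11 with a median of -0.079. By library the median deviation of the list was -0.24, -0.21 and 0.080 in flow, against 0.096, -0.021 and 0.21 in non-flow control. Lrrc8a, the obligatory subunit of the volume-regulated anion channel, measured 8.11, 10.5 and 10.9 FPKM in flow, against 12.3, 14.3 and 13.4 FPKM in non-flow control. All 3 flow values were lower, with a log2 fold change of -0.41 (SE 0.14, unadjusted p = 0.0236, limma adjusted p = 0.559). Tmem63a, a stretch-gated channel of the OSCA family, measured 17.8, 12.8 and 21.02 FPKM in flow, against 24.9, 20.5 and 36.9 FPKM in non-flow control, with a log2 fold change of -0.63 (limma adjusted p = 0.559).

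Calcium handling around the channels was also without calls. Of 14 genes for calcium release and reuptake by the ER 8 were tested and 6 had positive fold changes, with a median of 0.13, and 0 had an unadjusted p under 0.05. Over all genes tested 48.3% were positive. With flow libraries 1 and 2 left out 3 of the 8 were positive, with a median of -0.013, and leaving out single libraries gave medians as low as 0.045 (non-flow control 3) and 0.078 (flow library 2). Atp2a2, the SERCA2 pump that refills the stores, measured 150.1, 154.8 and 142.7 FPKM in flow, against 126.7, 138.8 and 122.4 FPKM in non-flow control. Its flow values were all above the controls, with a log2 fold change of 0.21 (SE 0.088, unadjusted p = 0.0548, limma adjusted p = 0.559). Of 13 extrusion genes 3 were tested. Slc8b1, the mitochondrial sodium-calcium exchanger, measured 1.48, 2.12 and 2.89 FPKM in flow, against 4.67, 3.35 and 3.61 FPKM in non-flow control. All 3 flow values were lower, with a log2 fold change of -0.64 (SE 0.22, unadjusted p = 0.0266, limma adjusted p = 0.559).

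The 11 mitochondrial uptake genes were all tested, with 6 positive and 5 negative fold changes and 0 with an unadjusted p under 0.05. Micu3, a regulator of the mitochondrial calcium uniporter, measured 3.66, 3.49 and 3.14 FPKM in flow, against 2.06, 2.75 and 2.48 FPKM in non-flow control, with no overlap (log2 fold change 0.37, limma adjusted p = 0.559). Of 31 genes of calcium-dependent signalling 21 were tested, 12 positive and 9 negative, and 1 had an unadjusted p under 0.05. That gene, the calmodulin-dependent kinase Camk2d, measured 120.6, 122.3 and 149.3 FPKM in flow, against 171.7, 154.2 and 174.3 FPKM in non-flow control, without overlap. Its log2 fold change was -0.35 (SE 0.12, unadjusted p = 0.0210, limma adjusted p = 0.559). Nfatc3, a transcription factor activated by calcineurin, measured 25.2, 25.1 and 25.1 FPKM in flow, against 22.4, 19.9 and 22.5 FPKM in non-flow control, with a log2 fold change of 0.21 (limma adjusted p = 0.559).

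Over the 11 lists together, 190 calcium and channel genes were found and 92 tested. Of these, 0 were called (limma), and 4 had an unadjusted p under 0.05, all lower in flow, which is 4.35% beside 8.52% of all genes tested. The groups did not overlap in 6 with flow above and in 8 with flow below, 15.2% beside 15.1% of all genes tested. The median log2 fold change of the 92 was -0.029.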

How the data were processed

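Per the labels' protocols, total RNA of 6 MLO-Y4 cultures was sequenced (HiSeq 2500, single-end, 50 cycles). Build mm10 and the tools Cufflinks 2.2.1, TopHat2 2.0.9 and CASAVA 1.8.2 are named in the submitters' processing notes. Which annotation was used, and whether strand was, is not given in the sources used here.

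The authors deposited 2 tables of FPKM. The one whose 6 columns all name a library title was used. In the other, 2 flow columns name no title and serve only as members of the flow group; it was an alternative for the genes it lists. No counts were used. Depth was read from the smallest steps of FPKM in genes with 1 transcript over 800 nt, taking 200 nt off the length, which assumes that fragment length; floors of 3 reads cover counting error only.

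Genes averaging 1 FPKM or more were tested by limma 3.58.1 (R 4.3.3) on log2(FPKM + 1) values (two-sided, trended variance prior, no covariate) and Benjamini-Hochberg adjustment over all 11957 genes and a threshold of 0.05. These p-values cover the spread between the 3 cultures of a group. The fit was also run on simulated data without a GC trend. That run checks the code, not the power for small changes in these libraries. Ratios used exact permutation tests (scipy 1.17.1 in Python 3.11.15), adjusted over 4. GC content, coordinates (1-based) and exon overlaps came from GENCODE M21, of the same assembly, and promoters from RefSeq. The GC correction removes a loess trend of each library's deviation on the GC content of the longest transcript, in protein-coding genes.

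The members and lists were chosen with earlier results of these data known. Named genes are the 10 members, up to 3 tested genes per list with the smallest p, the cell markers and the 3 genes most like Piezo1, which was also the most variable tested member. Paralogs, overlapping genes and Rcan1 are named outside this rule, after their values were seen. Alternatives are the pseudocount, the filter, scaling, GC correction, gene type, pairing, the variance prior, the other table and leaving out libraries.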

Additional observations from a re-analysis of the deposited data

How the results depend on the processing

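No alternative gave a call among the 8 tested members: their adjusted p was 0.127 to 0.9999 over all alternatives (limma). The number of genes called over all genes, 2 in the table as deposited, was 4 with a pseudocount of 0.1, 4 with no filter on low values, 0 with GC correction, 0 with protein-coding genes only, 3 to 14 with 1 library left out, and 76 with flow libraries 1 and 2 both left out, an alternative chosen after seeing the data in which flow library 3 stands alone and is assumed to vary like the controls. The causes were not tested.

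The labels do not say which libraries share a day. Libraries of adjacent titles correlated at 0.043, 0.0227 and 0.0644 in their deviations from the group means, so a pairing was not established, although 5 of 6 libraries correlated best with their own number. With adjacent titles as a replicate block 1 gene was called over all genes and 0 members. The block cannot change a fold change, only its SE and p, since each pair holds a flow and a control library. With GC correction Piezo1 was therefore at 0.000131 and Orai1 at 0.046 with or without the block.

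Of 693 comparisons over 39 named genes, 666 kept their direction and side of the threshold and 27 changed sign, in 13 genes. Part of the 666 was fixed in advance. A change of filter, gene type, pairing or variance prior alters a gene's p but not its fold change. Piezo1 changed to 0.000131 and Orai1 to 0.046 with GC correction. Pkd2 changed to 0.011 with quantile normalization and 0.00092 with median scaling. In the other table Trpv4 was -0.017, Cacnb1 0.25 and Slc24a3 -0.033. Without flow libraries 1 and 2 the values were Piezo1 0.17, Orai1 0.27, Tmem110 0.089, Tmco1 -0.0087, Slc24a3 -0.14, Vdac3 -0.054, Tob2 0.065, Grasp 0.057 and Itpripl1 0.022. With 1 library left out, Piezo1 ranged from -0.41 to -0.092, Pkd1 from -0.42 to -0.20, Pkd2 from -0.13 (without flow library 2) to 0.061 (without flow library 3), Trpv4 from -0.081 (without flow library 1) to 0.16, Trpm7 from 0.26 to 0.47, Cacna2d1 from 0.16 to 0.29, Stim1 from -0.020 (without flow library 3) to 0.23, Orai1 from -0.38 to -0.033 and Slc24a3 from -0.11 to 0.35. The log2 ratio difference ranged from -0.57 (without flow library 3) to -0.16 (without flow library 2) for Pkd1 to Pkd2, 0.077 (without flow library 1) to 0.42 for Stim1 to Orai1, and -0.77 (without flow library 3) to -0.12 (without flow library 1; -0.21 without non-flow control 2) for Piezo1 to Piezo2. That of Cacna2d1 to Cacna1c ranged from -0.51 to 0.58, above 0 without flow library 3 or without non-flow control 3, where Cacna1c rests on 5 steps and 1 step. Depth limits Cacna1c, and its 3 reads are worth the most FPKM in flow library 2.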

Other observations

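The 3 tested genes whose library-to-library deviations were nearest to those of Piezo1 were Tob2, Grasp and Itpripl1. Their root mean square differences from Piezo1 were 0.0450, 0.0796 and 0.0855 on the log2 scale over 6 libraries, beside an SD of 0.30 for Piezo1 itself. Tob2 measured 12.1, 10.8 and 16.1 FPKM in flow, against 16.8, 17.4 and 12.3 FPKM in non-flow control. As for Piezo1, flow libraries 1 and 2 and non-flow control 3 were low and the other 3 high. The likeness was searched over all tested genes in the same 6 libraries and has no test.

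Rcan1, a calcineurin inhibitor that calcium signalling is known to induce, measured 19.96, 22.9 and 50.2 FPKM in flow libraries 1 to 3, against 18.3, 21.3 and 44.2 FPKM in non-flow control libraries 1 to 3. In each group the library numbered 3 was the highest, and each flow library lay close to the control of the same number. In the main fit, which does not pair libraries, the log2 fold change of Rcan1 was 0.14 (SE 0.45, limma adjusted p = 0.913). That SE holds the spread between library numbers.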
